A study of Mus musculus with 14 samples.

Results

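The bile acid and xenobiotic receptor genes described here are 10 of the 55335 genes in the deposited count tables of a mouse study of intestinal stem cells. They are the receptor gene Nr1h4, its targets Nr0b2 and Fgf15, the bile acid transport genes Slc10a2, Slc51a, Slc51b and Fabp6, the receptor genes Vdr and Nr1i2, and the drug-metabolising gene Cyp3a11. The genes were taken by symbol, and each symbol had 1 gene identifier. The set was chosen by the counts of Nr1h4, which are higher with ES in WT cells and at 18 months. Its differences in the contrasts that hold those libraries are therefore given as a description, with no test.

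RNA was measured in 14 libraries of intestinal stem cells sorted for the EGFP expressed from the Lgr5 locus. In the Chrm3 experiment the mice carried Lgr5CreERT2-IRES-GFP and Chrm3flox/flox in all 4 groups, so the controls carry both alleles too. Chrm3 encodes the muscarinic acetylcholine receptor M3, and its floxed copies are removed in Lgr5-expressing cells by Cre that tamoxifen (TAM) activates. Mice labelled WT received vehicle and mice labelled KO received TAM for 3 days before the modelling of ES, a treatment that the labels give by its abbreviation only, in a series titled as a study of chronic stress; NT mice are the matching group without ES. Each of these 4 groups (KO ES, KO NT, WT ES and WT NT) had n = 2 libraries. Genotype and TAM cannot be told apart in this design. In the ageing experiment, Lgr5CreERT2-IRES-GFP mice of 2 months (young) and 18 months (old) gave n = 3 libraries each. Whether the libraries of a group came from separate animals is not stated, so p-values measure the spread between libraries, which may be technical.

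Bile acids are made in the liver from cholesterol, and most are taken up again in the ileum. In ileal enterocytes Slc10a2 brings them in from the lumen, Fabp6 binds them in the cytosol, and the dimer of Slc51a and Slc51b passes them on to the blood. The nuclear receptor FXR, encoded by Nr1h4, is activated by bile acids and raises Nr0b2, Fgf15, Fabp6, Slc51a and Slc51b, and the hormone FGF15 then lowers bile acid synthesis in the liver. VDR, the vitamin D receptor, also binds the secondary bile acid lithocholic acid, and PXR, encoded by Nr1i2, binds many drugs and some bile acids; both can raise Cyp3a genes.

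Library totals ran from 26683563 to 36882310 counts, and Lgr5 had between 2426 and 4858 counts in every library. Levels are CPM, the usual counts per unit of library size, after scaling by trimmed means of M-values (TMM), and ± after a level is the SD between libraries. The targeted gene Chrm3 had 355 and 386 counts in WT NT against 343 and 254 in KO NT, and 357 and 291 counts in WT ES against 256 and 213 in KO ES. It was thus still counted in the libraries labelled KO, where it was lower than in WT under ES (log2 fold change -0.68 ± 0.17 SE, adjusted p = 0.0363) but did not pass in NT (-0.50 ± 0.16, adjusted p = 0.120). The counts cover the whole gene, and which part is deleted is not given in the labels. Summed levels of 18 Lgr5 stem cell markers were 12254 to 17806 CPM, and those of 26 absorptive enterocyte markers were 2994 to 4999 CPM, so RNA of differentiated cells was present in every library. Stroma and vessel markers summed to at most 9.25 CPM, with 6 to 8 of 10 at 0. In KO NT replicate 2, 8.74% of counts came from mitochondrial genes, against 6.12% to 7.53% in the other libraries. In bulk samples, fewer cells of a type and less RNA per cell cannot be told apart. With n = 2 libraries in a group, groups often do not overlap by order alone. The share of all genes without overlap was not counted, so a lack of overlap is a description.

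The promoter windows of 4 of the genes are shown because they hold at least 1 copy of the core motif from which the binding sites of these receptors are built. RefSeq windows of 300 bases around the start site (GRCm38.p6) were found for 9 of the 10 genes. Nuclear receptors of this class bind pairs of a 6-base core motif, AGGTCA or a close relative. The capitals in Slc51b mark an inverted repeat of 2 core motifs with 1 base between them, the arrangement known for FXR, and the capitals in the others mark a single core motif, written as TGACCT where it lies on the opposite strand. Slc51b is at chr9:65422724-65423023, Slc51a at chr16:32487830-32488129, Cyp3a11 at chr5:145879805-145880104 and Nr1h4 at chr10:89506609-89506908, all on the minus strand and printed in the direction of the gene.
Slc51b: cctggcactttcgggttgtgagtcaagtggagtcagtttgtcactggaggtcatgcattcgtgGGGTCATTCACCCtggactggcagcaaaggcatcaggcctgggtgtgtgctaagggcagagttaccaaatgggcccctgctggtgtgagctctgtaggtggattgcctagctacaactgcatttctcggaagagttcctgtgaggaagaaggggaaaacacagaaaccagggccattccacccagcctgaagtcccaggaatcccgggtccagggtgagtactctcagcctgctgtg
Slc51a: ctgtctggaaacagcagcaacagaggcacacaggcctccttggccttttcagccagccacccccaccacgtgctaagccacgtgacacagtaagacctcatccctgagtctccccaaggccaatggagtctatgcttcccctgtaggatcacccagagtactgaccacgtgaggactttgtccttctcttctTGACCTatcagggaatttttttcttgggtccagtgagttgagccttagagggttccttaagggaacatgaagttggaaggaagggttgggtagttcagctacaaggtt
Cyp3a11: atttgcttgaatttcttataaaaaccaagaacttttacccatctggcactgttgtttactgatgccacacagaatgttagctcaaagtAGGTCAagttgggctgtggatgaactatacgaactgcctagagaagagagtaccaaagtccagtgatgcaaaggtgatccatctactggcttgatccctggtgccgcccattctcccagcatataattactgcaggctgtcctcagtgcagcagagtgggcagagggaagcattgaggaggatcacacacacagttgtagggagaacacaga
Nr1h4: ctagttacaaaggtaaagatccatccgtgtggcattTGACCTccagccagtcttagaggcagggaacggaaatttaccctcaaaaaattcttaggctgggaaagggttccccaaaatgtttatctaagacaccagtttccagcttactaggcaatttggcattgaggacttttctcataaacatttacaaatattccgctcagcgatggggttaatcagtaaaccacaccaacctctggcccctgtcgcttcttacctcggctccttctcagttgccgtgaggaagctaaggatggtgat

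The core motif AGGTCA, searched on both strands, was in 4 of the 9 windows (Slc51b, Slc51a, Cyp3a11 and Nr1h4) and in 16.3% of all 32851 RefSeq promoter windows. The inverted repeat, with the arms spelled AGGTCA, allowing also the arm GGGTCA, further the arm AGGTGA, and lastly the arm GGGTGA, was in 11 of the 32851 windows (0.0335%), and among the 9 genes it was in Slc51b alone, as GGGTCATTCACCC at positions -187 to -175 from the start site. A separate core motif of Slc51b lies just before it and is left in lower case. Direct repeats with 3 bases between the arms, known for VDR, and everted repeats with 6 bases between them, known for PXR, were searched with AGTTCA as a further arm and were in none of the 9 windows. These motifs were in 0.161% and 0.0609% of all windows. The RefSeq start of Nr1h4 lies 26927 bases inside the gene as GENCODE draws it, so its window is that of an internal start. For Vdr, Slc51b and Cyp3a11 the RefSeq start lies 2334, 182 and 110 bases inside the gene. The GENCODE start of Slc51b thus falls within its marked inverted repeat. The motifs were chosen after the windows had been looked at, so these shares do not measure how unexpected a match is. A match is a description of the letters, and no match says only that they are not in this window.

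Nr1h4 (chr10:89454234-89533585, minus strand, GRCm38) was higher in WT ES and in old than in the other 4 groups. It had 15.4 and 15.3 CPM in WT NT, 29.4 and 31.3 CPM in WT ES, 15.4 and 16 CPM in KO NT, and 18.4 and 17.9 CPM in KO ES. The young libraries had 15.4, 15.1 and 15.3 CPM and the old libraries 29.1, 31.9 and 31.3 CPM. Every WT ES library lay above every other library of its experiment, and the young and old libraries did not overlap. As a description, Nr1h4 was 1.98-fold higher with ES in WT and 2.02-fold higher in old than in young. With ES, the KO libraries held 1.67-fold less Nr1h4 than WT, and the log2 change with ES was 0.77 ± 0.13 (SE) smaller in KO than in WT. Of 18 Lgr5 stem cell markers 11 were lower with ES in WT and 0 higher, and with age 1 was higher and 1 lower. Their sums were 15625 and 15939 CPM in WT NT and 12254 and 12642 CPM in WT ES. Of all tested genes, 2.1% were higher and 1.39% lower with ES in WT, and 4.42% and 3.42% with age. Enteroendocrine markers summed to 159 and 170 CPM in WT NT against 257 and 273 CPM in WT ES (3 of 9 higher, 0 lower), and to 233 to 260 CPM in young against 340 to 489 CPM in old (6 of 10 higher, 0 lower). In KO NT and KO ES they summed to 119 to 165 CPM, and 0 of 9 passed with ES in KO. Goblet cell markers, 11 in all, also had their highest sums in WT ES, with 5062 and 5180 CPM in WT NT against 10221 and 10436 CPM in WT ES, and 2590 and 2658 CPM in KO NT against 4396 and 4431 CPM in KO ES. Of these markers 9 rose with ES in WT and 8 with ES in KO, and 10 were lower in KO both in NT and with ES. Among all tested genes 0.415% rose with ES in KO, and 2.11% in NT and 4.47% with ES were lower in KO. With age 3 of the goblet cell markers rose and 3 fell, with sums of 6674 to 7936 CPM in young and 8772 to 9193 CPM in old. Distal small intestine markers summed to 173 and 177 CPM in WT NT, 284 and 294 CPM in WT ES, and 143 to 196 CPM in KO. Of these, 4 of 10 were higher with ES in WT and 0 lower. Absorptive enterocyte markers summed to 3498 and 3526 CPM in WT NT, 4426 and 4999 CPM in WT ES, and 2994 to 4225 CPM in KO. Of these, 4 of 26 were higher with ES in WT and 0 lower. For both lists the young and old sums overlapped. The part of these lists in the levels of Nr1h4 was not tested.

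**Figure D1:**
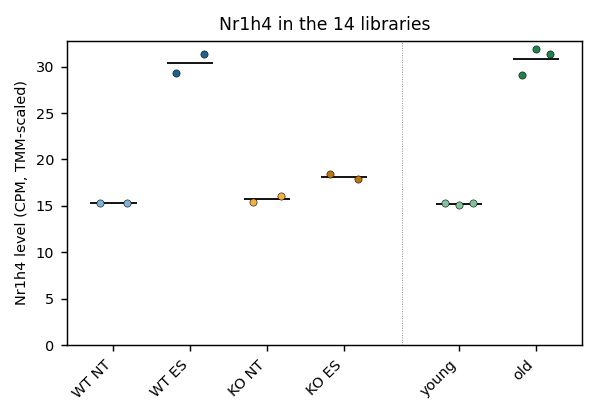
Level of Nr1h4 in each of the 14 libraries (y axis, TMM-scaled CPM) by group (x axis), with points for libraries and bars for group means; the dotted line separates the Chrm3 table from the ageing table, which were scaled separately. WT ES (29.4 and 31.3) and old (29.1 to 31.9) stand apart from the other groups, which lie between 15.1 and 18.4.

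ES against NT in KO is the only comparison with neither the WT nor the ageing libraries that chose Nr1h4. There the KO ES libraries (18.2 ± 0.38 CPM, n = 2) lay above the KO NT libraries (15.7 ± 0.48 CPM, n = 2) without overlap. The log2 fold change of 0.21 ± 0.09 did not pass over the 17364 genes tested (adjusted p = 0.556).

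The genes whose levels followed Nr1h4 most closely over the 14 libraries, with each table centred on its own mean, were Zfyve1 (Pearson r = 0.97), Adipor2 (0.96), Ipmk (0.95), Nbr1 (0.95) and Gtpbp2 (0.95), out of 11863 genes compared. Zfyve1 encodes a lipid-binding protein of the endoplasmic reticulum, Adipor2 a receptor for adiponectin, Ipmk an inositol phosphate kinase, Nbr1 an autophagy receptor and Gtpbp2 a GTP-binding protein. Their steps were smaller than that of Nr1h4. Zfyve1 had a mean of 25.2 CPM in WT NT, 32.3 CPM in WT ES, 26.8 CPM in KO ES, 25.6 CPM in young and 34.3 CPM in old. Adipor2 had 172 CPM in WT NT, 211 CPM in WT ES, 168 CPM in KO ES, 178 CPM in young and 225 CPM in old. The libraries share their depth and their groups, so these correlations are a description of the 14 points. Of the other 9 genes, only those with a mean of at least 1 CPM in both tables were compared. Fabp6, Slc10a2 and Fgf15 fell below that level. Of the rest, Slc51b (r = 0.75), Vdr (0.71) and Nr1i2 (0.71) were nearest to Nr1h4. Cyp3a11 (-0.14), Slc51a (0.15) and Nr0b2 (0.19) did not track it over the 14 libraries. In the Chrm3 and ageing libraries, r was 0.44 and 0.99 for Vdr, 0.47 and -0.42 for Slc51a, and 0.12 and -0.64 for Cyp3a11. It was 0.80 and 0.72 for Slc51b, 0.68 and 0.76 for Nr1i2, and -0.06 and 0.37 for Nr0b2.

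The 10 genes covered a wide range of levels. Per kilobase of exon (RPKM, from TMM-scaled CPM), the median over the 14 libraries was 118 for Vdr, 24.7 for Nr1i2, 7.37 for Nr1h4, 6.28 for Slc51a, 2.90 for Slc51b, 1.28 for Cyp3a11, 0.97 for Fabp6, 0.81 for Nr0b2, 0.11 for Slc10a2 and 0.00 for Fgf15. The ranges of Vdr (97.0 to 137) and Nr1i2 (21.1 to 28.9) overlapped with no other gene, whereas Nr1h4 (6.54 to 13.9) overlapped with Slc51a (3.71 to 7.83), Slc51a with Slc51b (1.97 to 4.77), Slc51b with Cyp3a11 (0.55 to 3.63), Cyp3a11 with Fabp6 (0 to 10.6), and Fabp6 with Nr0b2 (0.32 to 1.39). Slc10a2 (0.05 to 0.18) lay below Nr0b2 and overlapped with Fgf15 (0 to 0.14). Vdr exceeded 97.8% of the genes tested in the Chrm3 table, and Slc10a2 exceeded 5.16%. Slc51a exceeded 57.0% and Slc51b 42.8% in that table, while Fabp6 exceeded 23.1% there and 50.8% in the ageing table. The receptor genes were thus well counted. Among the transport genes Slc10a2 had the lowest median per kilobase, with 7 to 25 counts in each of the 14 libraries. Fabp6, a shorter gene, had counts in 12 of the 14.

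Nr0b2 and Fgf15, the FXR targets that carry the feedback on bile acid synthesis, were barely detected. Nr0b2 (chr4:133553376-133556536, plus strand), which encodes the repressor SHP, had 12 to 58 counts per library. Its level was 0.60 and 1.58 CPM in WT NT, 0.94 and 1.01 CPM in WT ES, 1.56 and 0.79 CPM in KO NT, and 0.86 and 0.71 CPM in KO ES. It was 0.36, 1.39 and 0.89 CPM in young and 1.30, 1.24 and 0.84 CPM in old. The groups overlapped in ES against NT in WT and in old against young, where the log2 fold changes were -0.14 ± 0.51 (adjusted p = 0.929) and 0.34 ± 0.42 (adjusted p = 0.720). With so few counts and SEs of this size, a small change would not have been detectable. No other comparison passed for Nr0b2 (adjusted p from 0.780 to 0.905).

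Fgf15 (chr7:144896531-144900953, plus strand) was counted in 6 of the 14 libraries, with 2 counts in WT NT replicate 2, 11 in KO NT replicate 2, 3 and 4 in young replicates 1 and 3, and 15 and 4 in old replicates 2 and 3. It was 0 in all 4 ES libraries, where a count of 0 allows up to 3 counts, or 0.0851 to 0.112 CPM, for counting error only. It was removed by the filter on low counts in both tables and was not tested. Its exons share 761 bases with Gm26793 and 26 bases with Gm39119 on the opposite strand, and it is not known here whether the counting used strand.

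The transport genes differed in level and in behaviour. Slc10a2 (chr8:5083219-5105351, minus strand), the uptake transporter, had 7 to 25 counts per library and levels of 0.20 to 0.75 CPM, and it passed in none of the 6 comparisons (adjusted p from 0.526 to 0.993). Slc51a (chr16:32474504-32487879, minus strand) had 19.4 and 17.8 CPM in WT NT, 22.4 and 23.8 CPM in WT ES, 14.3 and 23.6 CPM in KO NT, and 11.9 and 15.9 CPM in KO ES. Slc51b (chr9:65412714-65422955, minus strand), its partner subunit, had 2.14 and 1.54 CPM in WT NT, 3.38 and 2.73 CPM in WT ES, 1.40 and 1.97 CPM in KO NT, and 1.55 and 1.42 CPM in KO ES. Both subunits were at their highest mean in WT ES within the Chrm3 experiment and at their lowest mean in KO ES. For both genes the 2 WT ES libraries lay above the 2 KO ES libraries, which is a description.

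With ES, the log2 difference between KO and WT was -0.73 ± 0.21 for Slc51a (adjusted p = 0.0570) and -1.05 ± 0.29 for Slc51b (adjusted p = 0.0515), so neither passed. The change with ES in WT was 0.31 ± 0.20 for Slc51a (adjusted p = 0.465) and 0.73 ± 0.28 for Slc51b (adjusted p = 0.186). Without KO NT replicate 1 or replicate 2 these KO differences with ES were -0.74 and -1.06. KO NT is in neither group, and leaving out 1 of its 2 libraries takes its spread out of the shared estimate. A pass in such a fit is therefore not given as support. With all libraries, the change of Slc51a with ES in KO was -0.44 and the difference of its ES effects -0.75. Without KO NT replicate 1 these were -0.76 and -1.08. Slc51a shares 567 exon bases with Pcyt1a on the opposite strand, and Pcyt1a had 64.5 to 65.4 CPM in WT ES and 52.4 to 54.2 CPM in KO ES. Slc51b shares 91 bases with Rasl12, which had at most 0.64 CPM in WT ES and 0.51 CPM in KO ES.

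In the ageing table Slc51a had 25.1, 20.2 and 22.6 CPM in young and 20, 23.8 and 17.0 CPM in old (-0.15 ± 0.13, adjusted p = 0.561). Slc51b had 1.45, 1.82 and 2.38 CPM in young and 2.86, 3.30 and 2.19 CPM in old (0.56 ± 0.26, adjusted p = 0.246). The groups overlapped for both genes.

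Fabp6 (chr11:43596049-43601540, minus strand), the cytosolic bile acid binding protein, rose with age. It had 1.06, 0.37 and 0.78 CPM in young and 4.28, 5.08 and 2.19 CPM in old, from 35, 13 and 28 counts and 142, 180 and 70 counts. Every old library lay above every young library, and the log2 fold change was 2.41 ± 0.41 (5.30-fold, adjusted p = 0.00492). The call held in all 11 alternatives, with log2 fold changes of 2.08 to 2.74. Of 10 tested markers of the distal small intestine, where Fabp6 is normally found, 2 were higher and 2 lower in old, and their summed levels were 312.5 to 341 CPM in young and 265 to 343 CPM in old. In the Chrm3 experiment Fabp6 had 0 to 17 counts per library and passed in no comparison (adjusted p from 0.527 to 0.965).

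**Figure D2:**
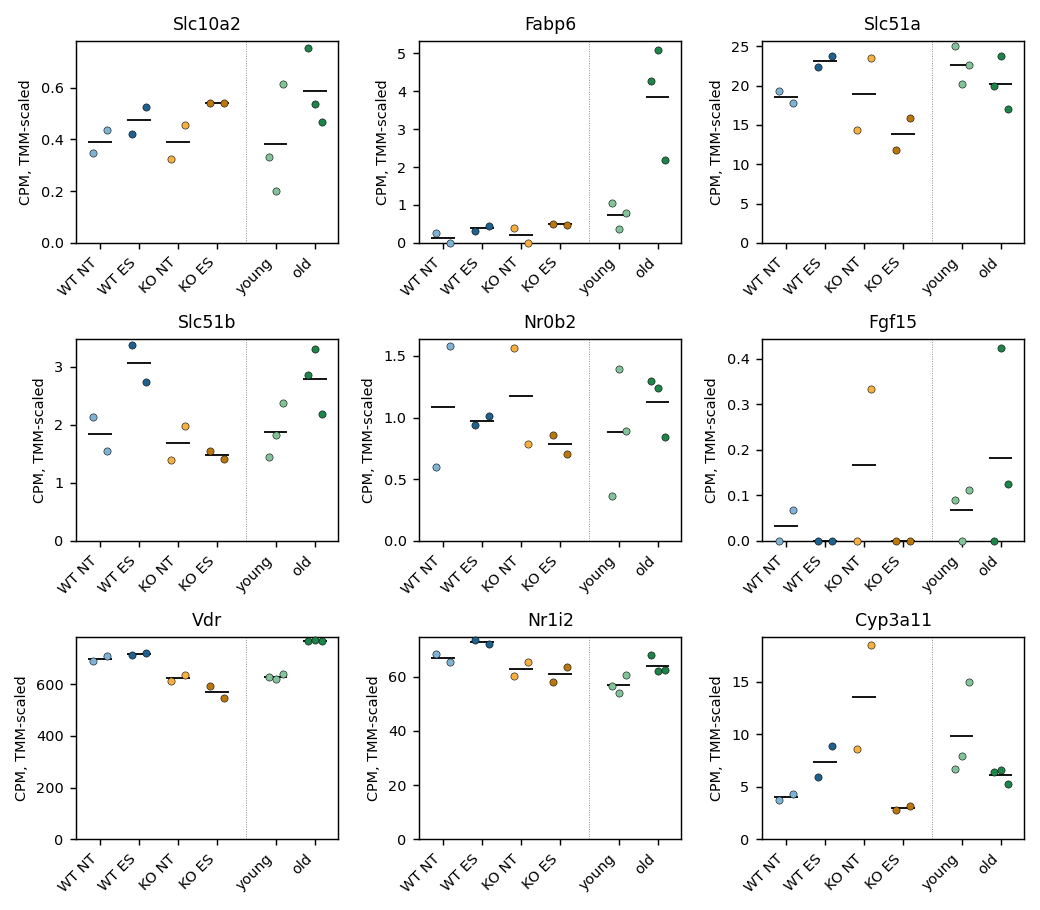
Levels of the other 9 genes in each library (y axes, TMM-scaled CPM, each from 0) by group (x axes), with points for libraries and bars for group means; the dotted line separates the 2 tables. Fabp6 and Vdr are higher in every old library than in every young one, Cyp3a11 spreads widest in KO NT (8.59 and 18.5), and Fgf15 is 0 in 8 libraries.

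Vdr (chr15:97854425-97910630, minus strand) was the most abundant of the 10 genes per length. It had 691 and 709 CPM in WT NT, 716 and 722 CPM in WT ES, 613 and 638 CPM in KO NT, and 595 and 548 CPM in KO ES. All 4 KO libraries lay below all 4 WT libraries. With ES, Vdr was 1.26-fold lower in KO than in WT (-0.33 ± 0.06, adjusted p = 0.00717). In NT the difference of -0.16 ± 0.06 did not pass (adjusted p = 0.166), and neither did the difference of the ES effects (-0.17 ± 0.08, adjusted p = 0.469). The lower level in KO with ES no longer passed without the second KO ES library (adjusted p = 0.0564) or without the second WT ES library (adjusted p = 0.0518).

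With age, Vdr rose from 627, 622 and 642 CPM to 769, 773 and 767 CPM. The groups did not overlap, and the log2 fold change was 0.29 ± 0.05 (1.22-fold, adjusted p = 0.00324), which passed in all 11 alternatives. The log2 change of Vdr with ES in WT was 0.04 ± 0.06 (adjusted p = 0.792).

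A vitamin D response list of 8 genes, with 5 tested in the Chrm3 table and 6 in the ageing table, was compared between old and young, where 4.42% of all 16807 tested genes rose and 3.42% fell. S100g, the calcium-binding protein calbindin D9k, fell from 6.26, 5.82 and 5.03 CPM in young to 2.35, 2.68 and 2.22 CPM in old (-1.23 ± 0.19, adjusted p = 0.00279). Trpv6, the apical calcium channel, had 45, 17 and 34 counts in young and 0 in all 3 old libraries, which is at least 31.0-fold lower when 3 counts are taken as the floor over the old group. It passed the filter on low counts only through the young libraries, so its level is a description, and no count or median of the list is given with it. S100g and Trpv6 are both known to be raised by VDR. The other 4 tested genes did not pass (Cyp27b1, Atp2b1, Cldn2 and Bmp2, adjusted p from 0.115 to 0.873). In KO against WT in NT, S100g rose from 1.88 and 2.25 CPM to 3.98 and 5.31 CPM (1.16 ± 0.28, adjusted p = 0.0442), in a comparison where 2.36% of tested genes rose and 2.11% fell. That call was lost without WT NT replicate 1 (adjusted p = 0.290), WT NT replicate 2 (0.182), KO NT replicate 2 (0.139), KO ES replicate 1 (0.0604) or KO ES replicate 2 (0.0605), and in a fit of the NT libraries alone (0.0511). No other comparison in the Chrm3 table had a passing gene of this list.

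Nr1i2 (chr16:38248323-38294824, minus strand), which encodes PXR, had 68.5 and 65.6 CPM in WT NT, 73.8 and 72.3 CPM in WT ES, 60.4 and 65.4 CPM in KO NT, and 58.3 and 63.7 CPM in KO ES. With ES the KO libraries lay below the WT libraries (-0.26 ± 0.07, adjusted p = 0.0575), which did not pass. Without KO NT replicate 1 or replicate 2 the log2 difference was -0.27. The young libraries had 56.5, 54.0 and 60.8 CPM and the old libraries 68.0, 62.1 and 62.4 CPM, without overlap (0.17 ± 0.07, adjusted p = 0.183).

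Cyp3a11 (chr5:145854426-145879964, minus strand), a cytochrome P450 of drug and bile acid hydroxylation, showed the largest tested change among the 10 genes in the Chrm3 experiment. It had 3.74 and 4.33 CPM in WT NT, 5.91 and 8.90 CPM in WT ES, 8.59 and 18.5 CPM in KO NT, and 2.82 and 3.12 CPM in KO ES. Both KO NT libraries were above both WT NT libraries, and both KO ES libraries were below all the others. In NT, Cyp3a11 was 3.33-fold higher in KO than in WT (1.74 ± 0.34, adjusted p = 0.0178), and with ES in KO it fell by 2.17 ± 0.36 on the log2 scale, a level 4.5-fold lower than in KO NT (adjusted p = 0.0275). In WT the change with ES was 0.87 ± 0.38 (adjusted p = 0.255).

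The difference of the ES effects of Cyp3a11, KO minus WT, was -3.04 ± 0.52 and did not pass (adjusted p = 0.0715). It passed with DESeq2 (adjusted p = 7.51e-08). Without KO NT replicate 1 it was -3.51, and without KO NT replicate 2 it was -2.42. The sizes rest on KO NT: without its replicate 2 the log2 values were 1.11 for KO against WT in NT and -1.53 for ES in KO, and without its replicate 1 they were 2.20 and -2.63. The 2 passing calls were each lost in other fits. The fall with ES in KO no longer passed without KO ES replicate 1 (adjusted p = 0.174), KO ES replicate 2 (0.202), WT NT replicate 1 (0.0672) or WT NT replicate 2 (0.0672), in a fit of the KO libraries alone (0.100) or with no filter on low counts (0.221). The higher level in KO NT no longer passed without WT NT replicate 1 (0.164) or WT NT replicate 2 (0.124) or with no filter (0.0955). With ES, the log2 difference between KO and WT was -1.30 ± 0.40 (adjusted p = 0.0752), which passed with DESeq2 (0.00178). Without KO NT replicate 1 or replicate 2 this difference was -1.31.

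KO NT replicate 2, with the highest Cyp3a11, also had the larger enterocyte sum of its group, 4225 CPM against 3170 CPM in replicate 1, and the highest mitochondrial share. Immediate early genes were higher in KO than in WT in NT (13 of 15, against 2.36% of all tested genes). Their sums were 1687 and 1709 CPM in WT NT and 3194 and 4807 CPM in KO NT. The part of these values in the Cyp3a11 calls was not tested. In both experiments the spread within a group was wide, and young replicate 3 had 15 CPM of Cyp3a11 against 6.65 and 7.95 CPM in the other young libraries. The old libraries had 6.45, 6.57 and 5.22 CPM (-0.70 ± 0.28, adjusted p = 0.164). Cyp3a11 belongs to a family of near-identical genes, and how reads were split among them is not given, so its count is uncertain. Cyp3a16, Cyp3a41a and Cyp3a41b had 0 counts in all 14 libraries, Cyp3a44 had at most 3 and Cyp3a59 had 17 to 51.

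**Figure D3:**
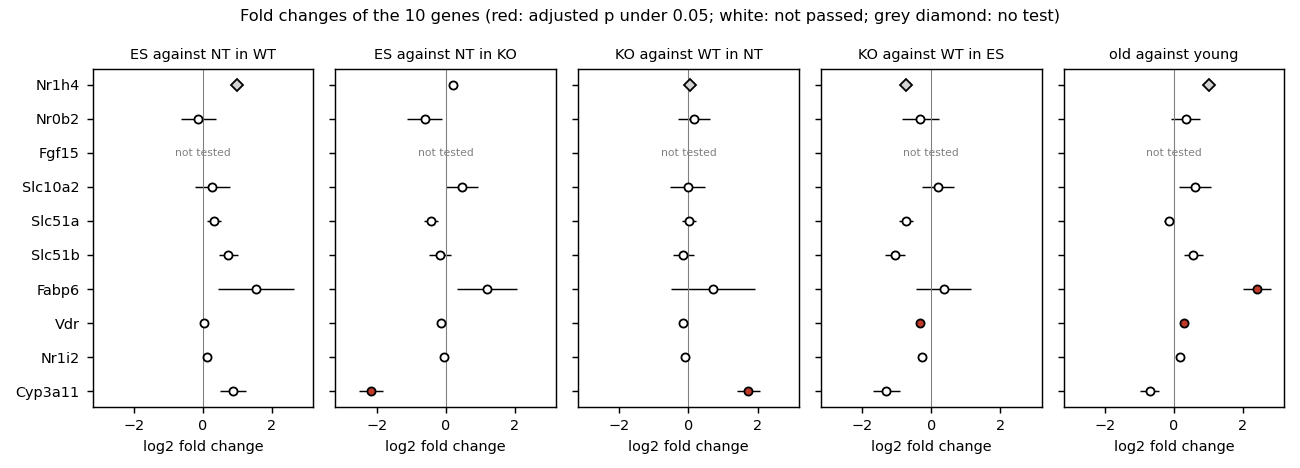
Log2 fold changes (x axes) of the 10 genes in 5 comparisons, with bars for ± 1 SE; red points passed at an adjusted p under 0.05, white points did not, and grey diamonds mark Nr1h4 where it was not tested. The passing points are Cyp3a11 in the KO ES and KO NT comparisons (-2.17 and 1.74), Vdr in KO against WT with ES (-0.33), and Fabp6 and Vdr in old against young (2.41 and 0.29).

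Counted together, with Nr1h4 left out wherever it was not tested, 0 of 8 tested genes passed with ES in WT, where 3.48% of all 17364 tested genes did. At an unadjusted p under 0.05 there were 2 (Slc51b and Cyp3a11), against 3225 of all 17364 tested genes, and DESeq2 called 0. With ES in KO, 1 of 9 passed (0.513% of all), in KO against WT in NT 1 of 8 (4.47%), and in KO against WT with ES 1 of 8 (7.56%). The difference of the ES effects had 0 of 8 (0.109%), and DESeq2 called 1 (Cyp3a11). At an unadjusted p under 0.05 it had 2 (Slc51a and Cyp3a11), against 1999 of all 17364 tested genes. Old against young had 2 of 8 (7.84%). The other comparisons also had members at an unadjusted p under 0.05. These were 5 of 8 in KO against WT with ES (3984 of all 17364 tested genes) and 3 of 9 with ES in KO (1493). In KO against WT in NT there were 2 of 8 (3072), and in old against young 4 of 8 (3619 of all 16807). With 8 or 9 genes tested, counts this small at the adjusted threshold do not set the genes apart from the background. The ES and KO comparisons share libraries, so they are not independent of each other.

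With ES, the 8 tested genes had a median log2 difference of -0.33 between KO and WT, against 0.00 over all tested genes, with 2 of 8 above 0. The absorptive enterocyte markers moved with it: 20 of 26 were lower in KO and 0 higher, where 4.47% of all tested genes were lower and 3.09% higher, and their summed levels were 4426 and 4999 CPM in WT ES and 2994 and 3240 CPM in KO ES. Goblet (10 of 11), tuft (5 of 7) and enteroendocrine (6 of 9) markers were lower in the same comparison, with 0 higher in each. Lgr5 stem cell markers mostly went the other way, with 6 of 18 higher and 1 lower. Their sums were 12254 and 12642 CPM in WT ES and 15318 and 16121 CPM in KO ES. The part of these lists in the lower Vdr, and in the differences of Slc51a, Slc51b, Nr1i2 and Cyp3a11 that did not pass, was not tested. With ES in WT, 4 of the 26 absorptive enterocyte markers were higher and 0 lower, and with ES in KO 0 were higher and 4 lower.

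A list of 20 other bile acid genes, 16 of them tested, had few passing members in the Chrm3 experiment. No member passed with ES in WT or with ES in KO. At an unadjusted p under 0.05 there were 6 and 3 of 16, against 3225 and 1493 of all 17364 tested genes. Cyp27a1, the sterol 27-hydroxylase of the alternative bile acid route, was lower in KO than in WT both in NT and with ES. It had 11.5 and 12.1 CPM in WT NT, 6.76 and 7.13 CPM in KO NT, 13.2 and 13.9 CPM in WT ES, and 9.04 and 7.17 CPM in KO ES. The log2 differences were -0.76 ± 0.14 in NT (adjusted p = 0.0120) and -0.74 ± 0.14 with ES (adjusted p = 0.00928). In NT, 6 of 7 tuft and 10 of 11 goblet markers were also lower in KO, with 0 higher, against 2.11% of all tested genes. Tuft sums were 73.4 and 76.0 CPM in WT NT and 28.2 and 35.7 CPM in KO NT. The part of these markers in the lower Cyp27a1 was not tested. The NT call was lost without WT NT replicate 1 (0.0972) or 2 (0.124), and the ES call without KO ES replicate 2 (0.0842) or WT ES replicate 2 (0.0658). Ppargc1a, a coactivator of nuclear receptors, was lower in KO with ES (-0.90 ± 0.17, adjusted p = 0.0115), a call lost without KO ES replicate 1 (0.0668) or WT ES replicate 2 (0.0919). The list's median was -0.09 in KO against WT with ES.

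With age the same list had 5 members higher and 3 lower of 16 (4.42% and 3.42% of all tested genes), with a median of 0.10 against 0.00 over all tested genes. Nr5a2, which encodes the bile acid pathway activator LRH-1, rose from 71.3 ± 3.2 to 98.1 ± 4.9 CPM (n = 3 each, 0.46 ± 0.06, adjusted p = 0.00136). Rxrb, a partner receptor of FXR, rose from 53.3 ± 4.0 to 67.5 ± 1.3 CPM (0.34 ± 0.07, adjusted p = 0.0112). Abcc3, a basolateral exporter of conjugates, fell from 101.5 ± 3.1 to 78.5 ± 4.8 CPM (-0.37 ± 0.06, adjusted p = 0.00454), and Fgfr4, the receptor of FGF15, fell from 22.2 ± 1.9 to 16.5 ± 0.15 CPM (-0.43 ± 0.09, adjusted p = 0.0182). Cyp27a1, lower in KO above, was also among the 5 that rose (0.46, adjusted p = 0.0350), a call kept in 6 of 11 alternatives. Nr5a2 and Abcc3 passed in all 11 alternatives. Rxrb was lost without young replicate 2 (0.0700) or old replicate 1 (0.0542), and Fgfr4 without young replicate 1 (0.0701), young replicate 2 (0.101) or old replicate 1 (0.0818).

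A list of 30 genes of the xenobiotic response, 29 of them tested, differed most between KO and WT with ES, where 7 were lower and 0 higher (4.47% and 3.09% of all tested genes) and the median was -0.49. Ces2a and Ces2e, carboxylesterases that cleave drug esters, fell by 0.95 ± 0.14 (adjusted p = 0.00263) and 0.76 ± 0.13 (adjusted p = 0.00683) on the log2 scale, and both calls held in all 14 alternatives. Ces2a had 56.8 and 67.5 CPM in WT ES against 32.9 and 31.4 CPM in KO ES. Cyp2b10, a P450 that nuclear receptors of drugs raise, had 5.52 and 10.3 CPM in WT ES against 2.03 and 2.24 CPM in KO ES (-1.86 ± 0.36, adjusted p = 0.0114). Sult1b1, a sulfotransferase, was also lower (-0.63 ± 0.13, adjusted p = 0.0173). Cyp3a13, Cyp3a25 and Aldh1a1, named after their values were seen, were the other 3 (-1.09, -1.46 and -1.05). Cyp2b10, Sult1b1, Cyp3a13 and Cyp3a25 lost the call without WT ES replicate 2, KO ES replicate 1 or KO ES replicate 2 (adjusted p from 0.0525 to 0.130), and Aldh1a1 without those 3 libraries (0.118 to 0.217) or either WT NT library (0.0609 and 0.0606). Proximal small intestine markers, which include Cyp2b10, had 7 of 11 lower in the same comparison, and their part was not tested.

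Sult1b1 was the 1 gene of this list that rose with ES in WT, where 2.1% of tested genes did, from 45.1 and 48.2 to 68.8 and 80.3 CPM (0.67 ± 0.13, adjusted p = 0.0249), a call lost without any 1 of the 4 WT libraries (adjusted p from 0.0544 to 0.188). No gene of the list passed with ES in KO, in KO against WT in NT or in the difference of the ES effects. At an unadjusted p under 0.05 there were 9, 4 and 14 of 29, against 1493, 3072 and 1999 of all 17364 tested genes. The median of the difference was -0.61 against 0.01 over all tested genes. Cyp3a13 and Cyp3a25 were higher in both WT ES libraries than in both WT NT libraries, as was Cyp3a11, and in KO NT replicate 2 than in KO NT replicate 1.

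**Figure D4:**
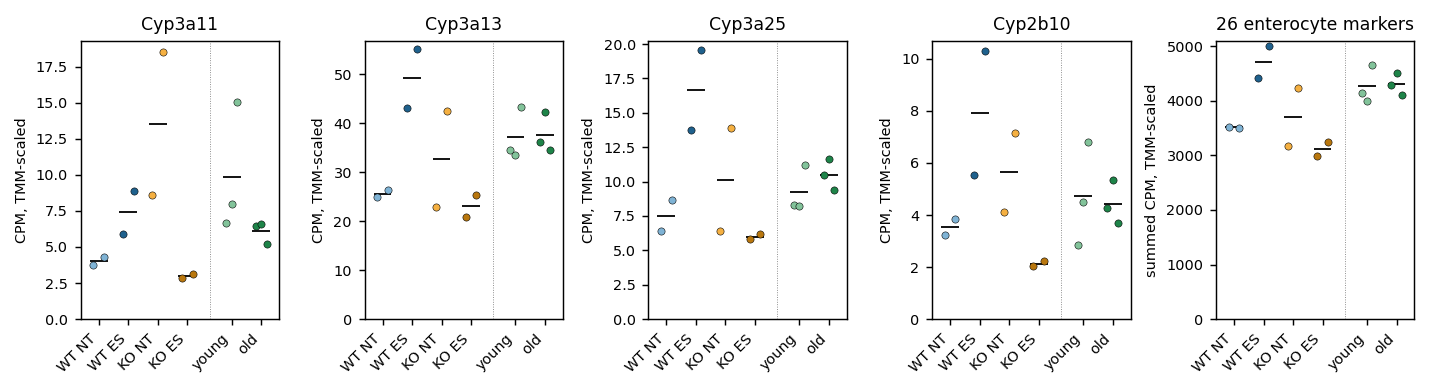
Levels of Cyp3a11, Cyp3a13, Cyp3a25 and Cyp2b10 (y axes, TMM-scaled CPM) and the summed level of 26 absorptive enterocyte markers (last panel, TMM-scaled CPM) in each library by group (x axes), with points for libraries and bars for group means. In all 5 panels both KO ES libraries lie below both WT ES libraries, and KO NT replicate 2 lies above replicate 1.

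With age, 5 of the 29 xenobiotic genes rose and 0 fell (4.42% and 3.42% of all tested genes), with a median of 0.16 against 0.00 over all tested genes. Cyp2c65, an intestinal P450, rose from 22.3, 25.4 and 28.4 CPM to 41.7, 38.9 and 40.4 CPM (0.67 ± 0.09, adjusted p = 0.00133). Abcb1a, the efflux pump P-glycoprotein, rose from 61.2 ± 4.6 to 80.4 ± 1.5 CPM (n = 3 each, 0.39 ± 0.07, adjusted p = 0.00470), and both held in all 11 alternatives. Aldh1a1, a retinaldehyde dehydrogenase, rose by 1.05 ± 0.24 (adjusted p = 0.0227), a call lost without young replicate 1 (0.101), young replicate 2 (0.104), old replicate 1 (0.0955) or old replicate 2 (0.0748), and with DESeq2 (0.0805). Sult1d1, a sulfotransferase, rose by 0.27 ± 0.07 (adjusted p = 0.0437), a call lost without young replicate 1 (0.163), young replicate 2 (0.103), old replicate 1 (0.0977) or old replicate 2 (0.123). In the same libraries, immune markers summed to 60.1 to 92.0 CPM in young and 219.6 to 238.8 CPM in old, with 7 of 8 higher. Immediate early genes, which respond to tissue handling, were also higher in old (13 of 15), with sums of 2901 to 2999 CPM in young and 4546 to 5245 CPM in old. Enterocyte sums overlapped (3991 to 4653 and 4100 to 4508 CPM). Tuft markers were lower in old (6 of 7), with sums of 150 to 181 CPM in young and 80.4 to 83.0 CPM in old, and enteroendocrine markers were higher (6 of 10), as given above. Paneth cell markers had 4 of 10 lower, with sums of 10085 to 10630 CPM in young and 8254 to 10624 CPM in old. Goblet cell sums were higher in every old library, with 3 of 11 markers higher and 3 lower, as given above. The part of these lists in the changes with age was not tested.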

How the data were processed

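PolyA RNA of Lgr5-EGFP-sorted cells was extracted with Trizol and made into strand-specific TruSeq libraries from 1 µg of total RNA, per the labels' protocols. The authors deposited unnormalised whole-number counts of reads for each Ensembl gene, with the 8 Chrm3 libraries and the 6 ageing libraries in separate tables. The genome was mm10 and reads were checked with FastQC 0.11.2, per the submitters' processing notes. No aligner, counting tool or use of strand in counting is given in the sources used here. Columns named Ctrl were read as NT.

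Gene positions and exon lengths came from GENCODE M21 (GRCm38), which holds 55154 of the 55335 identifiers. The promoters are RefSeq windows of GRCm38.p6, and the motifs were chosen after the windows had been looked at. Each table was processed separately in edgeR 4.0.16 (R 4.3.3): filterByExpr with a minimum count of 10, TMM factors, and the quasi-likelihood test with 1 mean per group, with all 8 Chrm3 libraries sharing 1 estimate of the spread. Benjamini-Hochberg adjustment ran over the 17364 or 16807 genes tested, and a gene rose or fell at an adjusted p under 0.05. The SE of a fold change was derived from the F statistic and is approximate. The method was tested on simulated data. Alternatives were other size factors, no filter, DESeq2 1.42.0, a replicate block, only the 2 groups compared, leaving out each library, no TMM scaling of levels, and, added after the data were seen, the older form of the quasi-likelihood fit.

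The 10 genes and the lists were chosen with earlier results of these data known. Named genes were the 10, up to 4 passing genes per pathway list and comparison by p, the 5 genes most like Nr1h4 (with a mean of at least 1 CPM in both tables), Chrm3 and Lgr5. Replicates of a group differed by more than counting noise (chi-square per degree of freedom from 3.59 to 25.8), so each library counted once. Intervals and floors cover counting error only.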

Additional observations from a re-analysis of the deposited data

How the results depend on the processing

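The higher Fabp6 and Vdr in old libraries passed in all 11 alternatives, so 2 of 8 members passed in each. Of 646 tests of the 9 tested genes under the alternatives, 586 kept their direction and side of the threshold and 22 changed sign, none of them passing there. Calls in the Chrm3 experiment changed more when single libraries were left out, and the cause was not tested. Its groups have n = 2, so a group that loses 1 library has no spread of its own. The groups of n = 3 in the ageing experiment keep theirs. Leaving out each library in turn, the members passing were 0 to 1 for ES in WT, 0 to 2 for ES in KO, 0 to 1 for KO in NT, 0 to 5 for KO with ES and 0 to 2 for the difference of the ES effects. All genes passing were 35 to 1263, 11 to 288, 170 to 937, 423 to 1995 and 1 to 397 in the same order, and 647 to 1516 for age. With no count filter, the members passing were 0 for ES in KO and 0 for KO in NT. All genes passing then fell to 114 from 605 for ES in WT, 8 from 89 for ES in KO, 317 from 776 for KO in NT, 593 from 1312 for KO with ES, 0 from 19 for the difference and 666 from 1318 for age. Among other genes named, Sult1b1 (ES in WT), S100g (KO in NT), Ppargc1a, Cyp3a13, Cyp3a25, Cyp2b10, Sult1b1 and Aldh1a1 (KO with ES), and Rxrb, Fgfr4, Sult1d1 and Aldh1a1 (age) no longer passed then (adjusted p from 0.0524 to 0.147). DESeq2 gave 3 members for KO with ES and 1 for the difference, and all genes passing were 921 for ES in WT, 201 for ES in KO and 177 for the difference. With only the 2 groups compared, the members passing were 1 for ES in WT, 0 for ES in KO and 4 for KO with ES, and all genes passing were 1855 for ES in WT and 22 for ES in KO. The older form of the fit, added after the data were seen, gave 2 members for KO with ES and 11 genes for the difference. Whether replicate numbers pair the libraries is not stated. Correlations of same-numbered deviations ran from -0.01 to 0.10 and from 0.00 to 0.08 in the 2 tables. The mitochondrial share was higher in replicate 2 than in replicate 1 in each Chrm3 group, and the source of this was not tested. It was 6.90% against 6.79% in WT NT, 6.94% against 6.42% in WT ES, 8.74% against 6.99% in KO NT and 7.53% against 6.74% in KO ES. With the replicate block the members passing were 5 for KO with ES and 1 for the difference, and all genes passing were 970 for ES in WT, 206 for ES in KO, 104 for the difference and 2019 for age. The log2 change of Slc51a for KO in NT was -0.0015 with the replicate block, and that of Slc10a2 was 0.0033 with no count filter. Signs changed when single libraries were left out for Nr0b2 (-0.68 to 0.71 for ES in WT, -0.44 to 1.00 for KO in NT, -1.33 to 0.11 for the difference and -0.012 to 0.82 for age), Slc51b (-0.41 to 0.077 for ES in KO and -0.39 to 0.12 for KO in NT) and Nr1i2 (-0.11 to 0.020 for ES in KO). The same held for Slc10a2 (-0.25 to 0.22 for KO in NT and -0.034 to 0.44 for the difference), Slc51a (-0.36 to 0.34 for KO in NT) and Fabp6 (-5.06 to 5.80 for KO in NT and -5.44 to 5.42 for the difference). Levels without TMM scaling moved by at most 2.76%. Counts of under 60 per library limit what can be said of Nr0b2, Fgf15 and Slc10a2, and of Fabp6 in the Chrm3 experiment.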
